A study of Caenorhabditis elegans with 8 samples.

Results

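The lysozyme and saposin-like genes of *C. elegans* were taken as every gene in the deposited normalised table whose symbol starts with lys-, ilys- or spp- followed by a digit. This gave 27 genes among the 14334 kept after the filter on low values, with 8 *lys*, 3 *ilys* and 16 *spp* genes. The count table holds 39 such symbols among its 42048 symbols, of which 12 fell below the filter. RNA was sequenced from whole worms grown on *E. coli* OP50 to the L4 stage. The 4 groups were *nhr-49*(*nr2041*) worms after 4 hr in 7.5 mM tert-butyl hydroperoxide (tBOOH, an organic peroxide), wild-type N2 worms given the same exposure, untreated *nhr-49*(*nr2041*) worms and untreated wild-type worms. Each group has 2 libraries, labelled as replicates 1 and 3. The *nr2041* allele is described as a null mutation, backcrossed into the N2 strain, of a nuclear hormone receptor that controls fat metabolism genes, and it was present in all cells of the mutant worms.

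Worms eat bacteria, and lysozymes and saposin-like proteins are among the proteins that break these bacteria open. The *lys* genes encode lysozymes related to those of amoebae, and the *ilys* genes encode the invertebrate type, both of which cut the peptidoglycan of the bacterial wall. The *spp* genes encode small proteins with a saposin fold, some of which, the caenopores, make holes in bacterial membranes, while others resemble the lysosomal helpers of lipid breakdown. Many of these genes are active in the intestine, and some are raised by infection.

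Library totals ranged from 2157766 to 5852727 counts, and the lowest 2 were the untreated *nhr-49* libraries. Values are given as counts or as CPM (the count relative to the library total, scaled by TMM factors). The floor was set at 3 counts per library, which is worth 0.508 to 1.55 CPM. Counts of *nhr-49* itself gave 27.7 to 32.7 CPM in *nhr-49* tBOOH, 108 to 110 CPM in wild-type tBOOH, 21.2 to 36.1 CPM in untreated *nhr-49* and 66.1 to 68.5 CPM in untreated wild-type worms. Summed yolk protein genes (6 *vit* genes) set both *nhr-49* replicate 3 libraries apart, with 3560 CPM under tBOOH and 833 CPM untreated, against 67482 and 60999 CPM in the replicate 1 libraries. In wild-type worms replicate 3 was lower as well, with 40580 CPM under tBOOH and 23569 CPM untreated, against 85701 and 51483 CPM in replicate 1. Their part in the results was not tested, and results without both *nhr-49* replicate 3 libraries are given below where a call was lost or a count of calls moved. No source names the counting program or its strand setting, so reads shared by near-identical family members or overlapping genes could be misassigned. Of the 27 genes, 6 overlap another protein-coding gene in the WBcel235 annotation (*ilys-4*, *lys-8*, *spp-1*, *spp-10*, *spp-15* and *spp-16*), and none of these 6 is among the 7 genes called below.

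Several of the genes lie in small groups of neighbours, meaning members within 3 protein-coding genes of each other. *lys-1*, *lys-2* and *lys-3* form such a group on chromosome V, and *lys-4*, *lys-5* and *lys-6* on chromosome IV. *spp-2*, *spp-3*, *spp-4* and *spp-5* form another on chromosome X, although *spp-3* and *spp-5* lie further apart than this. *spp-17* and *spp-23* are neighbours on chromosome I. Chromosome IV holds 9 of the 27 genes, X holds 8, V holds 5, I holds 3, and II and III hold 1 each.

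Levels differed widely between the genes, which were first ordered by CPM per kb of exon. In untreated wild-type worms *lys-1* was the most abundant at 508 ± 106 CPM per kb (SD, n = 2). It was followed by *ilys-5* (437 ± 62.0 CPM per kb), *spp-17* (414 ± 30.3 CPM per kb), *spp-3* (402 ± 110 CPM per kb), *lys-4* (348 ± 24.0 CPM per kb) and *spp-5* (337 ± 31.0 CPM per kb). Adjacent genes in this order did not differ beyond their spread. *spp-14* (230 ± 15.2 CPM per kb), *lys-8* (167 ± 34.5 CPM per kb) and *spp-10* (63.0 ± 6.9 CPM per kb) came next, each below the gene before it by more than the spread. At the low end *lys-3* had 0.5 ± 0.2 CPM per kb and *ilys-2* 0.2 ± 0.3 CPM per kb, resting on 0 to 4 counts per library. Over all 8 libraries 8 of the 27 genes averaged at least 100 CPM, 10 averaged under 10 CPM, and 21 were above 3 counts in every library.

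Differences between groups were tested with the edgeR exact test on the counts, with Benjamini-Hochberg adjustment over all 14334 genes, and a gene is called when its adjusted p is under 0.05. Of the 27 genes, 7 were called in at least 1 of 4 comparisons (*lys-2*, *lys-3*, *lys-7*, *ilys-2*, *ilys-5*, *spp-4* and *spp-23*), and 20 in none. The share of all genes called in at least 1 was not computed, and shares per comparison are given below. The treatment comparisons in wild-type and in *nhr-49* worms use separate libraries, whereas each genotype comparison shares libraries with both.

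**Figure D1:**
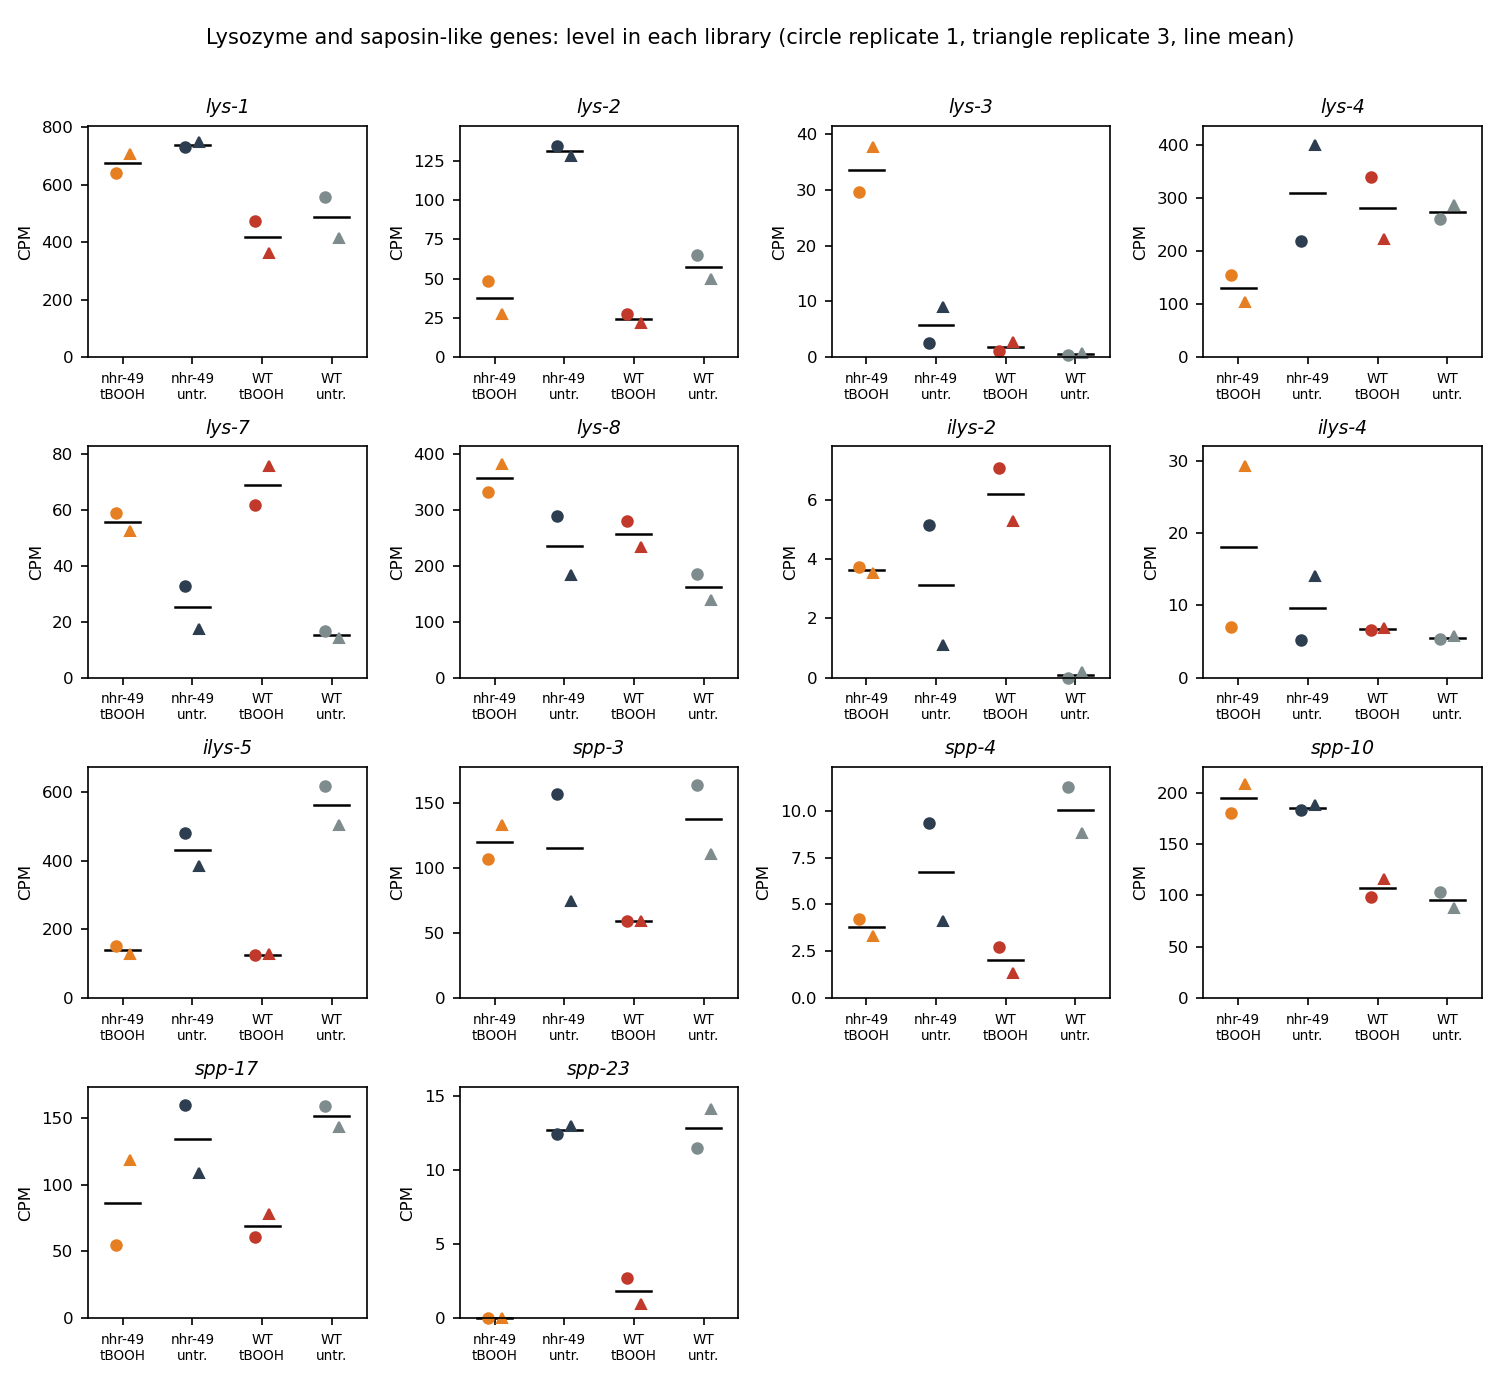
CPM of 14 lysozyme and saposin-like genes in each of the 8 libraries, by group (*nhr-49* tBOOH, *nhr-49* untreated, wild-type tBOOH, wild-type untreated), with circles for replicate 1, triangles for replicate 3 and a line at the group mean. *ilys-5* is low in all 4 tBOOH libraries, *lys-7* is high in them, *lys-3* is high in both *nhr-49* tBOOH libraries and *spp-23* is at 0 there.

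The first comparison asked how the genes respond to peroxide in wild-type worms. tBOOH raised *lys-7* 4.50-fold and *ilys-2* at least 9.81-fold, and lowered *ilys-5* 4.47-fold, *spp-4* 4.89-fold and *spp-23* 6.87-fold. Called as higher were thus 2 of 27 genes (7.41%), against 2.2% of all genes tested, and called as lower were 3 of 27 (11.1%), against 3.14% of all genes. Across the 27 genes the log2 fold changes had a median of -0.21, against 0.05 for all genes tested. Because whole worms were sequenced, fewer cells of a type and less RNA per cell cannot be told apart in any of these differences.

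*lys-7* (WBGene00003096), a lysozyme needed for resistance to several bacteria and a known target of the insulin-pathway factor DAF-16, had 365 and 399 counts in wild-type tBOOH, against 72 and 73 in untreated wild-type worms. These are 61.8 and 75.6 CPM under tBOOH, against 16.6 and 14.0 CPM untreated. Both treated libraries were far above both untreated ones, and the log2 fold change was 2.17 (edgeR adjusted p = 5.06e-05), or 2.14 ± 0.40 (SE) by DESeq2. The *lys-8* lysozyme, with 280 and 235 CPM under tBOOH against 186 and 139 CPM untreated, did not overlap either but missed the threshold (log2 0.67, edgeR adjusted p = 0.408). The other *lys* genes showed no general rise. *lys-1*, the most abundant, had 475 and 363 CPM under tBOOH, against 559 and 416 CPM untreated, and its groups overlapped.

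*lys-2* had 27.6 and 21.6 CPM under tBOOH, against 65.3 and 50.0 CPM untreated, and lay just outside the threshold (log2 -1.23, edgeR adjusted p = 0.0509). DESeq2 gave an adjusted p of 0.0271 for it. *lys-4* had 340 and 224 CPM under tBOOH, against 261 and 287 CPM untreated, so that its untreated values fell between the treated ones. *lys-3*, *lys-5* and *lys-6* held between 2 and 14 counts in the 4 wild-type libraries, and none was called. The summed level of the 8 *lys* genes overlapped between the groups, at 923 to 1188 CPM under tBOOH and 908 to 1091 CPM untreated.

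Among the invertebrate-type lysozymes, *ilys-5* (WBGene00017691) carried nearly all of the signal, with 79.7% to 99.2% of the summed *ilys* level in each library. It had 735 and 671 counts in wild-type tBOOH, against 2686 and 2637 in untreated wild-type worms, or 124 and 127 CPM against 618 and 505 CPM. The treated libraries were close to each other and far below the untreated ones (log2 -2.16, edgeR adjusted p = 1.47e-06). This fall stayed called under every one of the 18 alternatives computed. *ilys-2* (WBGene00016669), which infection with *Staphylococcus aureus* is known to induce, went the other way. It had 42 and 28 counts under tBOOH, against 0 and 1 untreated (edgeR adjusted p = 8.82e-05). Since both untreated libraries are within the floor, only the lower bound of 9.81-fold is given. *ilys-4*, which overlaps *atic-1*, had 6.60 and 6.82 CPM under tBOOH, against 5.29 and 5.75 CPM untreated, and was not called.

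Of the 16 saposin-like genes 2 were called, both as lower, and the family's median log2 fold change was -0.67, with 10 of 16 below 0. *spp-23* (WBGene00021335) had 16 and 5 counts under tBOOH, against 50 and 74 untreated (log2 -2.78, edgeR adjusted p = 0.000619). *spp-4* (WBGene00004989) had 16 and 7 counts under tBOOH, against 49 and 46 untreated (log2 -2.29, edgeR adjusted p = 0.0138). Both are genes of low abundance, and in both the groups did not overlap. Of the 5 *spp* genes with the highest mean level, 3 had lower values without overlap and without passing the test. In this comparison 13 of the 16 *spp* genes did not overlap, counting both directions, and the share over all genes was not computed. With 2 libraries per group such separation alone does not show a fall. *spp-3*, a caenopore gene, had 59.0 and 59.5 CPM under tBOOH, against 164 and 111 CPM untreated (edgeR adjusted p = 0.0900). *spp-17* had 60.6 and 77.9 CPM under tBOOH, against 159 and 143 CPM untreated (edgeR adjusted p = 0.140), and *spp-5*, whose product kills bacteria by forming pores, had 74.1 and 68.6 CPM against 133 and 116 CPM (edgeR adjusted p = 0.219). *spp-10*, which encodes a prosaposin-like protein, had overlapping values of 98.6 and 116 CPM under tBOOH and 103 and 88.1 CPM untreated. *spp-8* lay in the other direction without overlap, with 82.9 and 59.5 CPM under tBOOH, against 49.5 and 39.5 CPM untreated (log2 0.68, edgeR adjusted p = 0.330). The remaining 9 *spp* genes had log2 fold changes between -2.06 (*spp-13*) and 1.45 (*spp-2*), none called. The sum over the 16 *spp* genes was 485 to 511 CPM under tBOOH, against 674 to 779 CPM untreated.

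Several of these calls were lost with a single wild-type library left out or under another test, settings in which fewer of all genes were called as well. Without untreated wild-type replicate 3 *lys-7* (adjusted p = 0.0865) and *spp-23* (0.108) were lost and 2 genes were called, and without untreated wild-type replicate 1 *ilys-2* was lost (adjusted p = 0.0527) and 3 genes were called. *spp-23* was also lost without wild-type tBOOH replicate 3, *spp-4* without any 1 of the 4 wild-type libraries, and both under the quasi-likelihood test. That test called 3 of the 27 genes and 1.63% of all genes, where the exact test called 5.34% of all genes. Conversely, 9 genes were called without *nhr-49* tBOOH replicate 1 (7.84% of all genes) or without *nhr-49* tBOOH replicate 3 (7.99%), which enter this comparison only through shared steps such as the estimate of spread. Without both *nhr-49* replicate 3 libraries 11 were called, where 17.2% of all genes were.

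Markers of several tissues, among them the intestine in which many of these genes are used, had lower sums after treatment. All 6 intestinal marker genes (*elt-2*, *ges-1*, *vha-6*, *act-5*, *ifb-2* and *asp-1*) had lower means after tBOOH in wild-type worms, and their sum was 3751 to 4341 CPM, against 8218 to 9158 CPM untreated. Most of this sum was *asp-1*, also among the lysosomal genes below, with 2761 and 2670 CPM under tBOOH, against 5225 and 4756 CPM untreated. Log2 fold changes were -0.28 for *ifb-2*, -0.30 for *vha-6*, -0.64 for *ges-1*, -0.78 for *elt-2* and -0.88 for *asp-1*. Of these 6, *act-5*, an actin of intestinal microvilli, was called as lower (log2 -2.76, edgeR adjusted p = 0.000554). All 4 hypodermal markers (*dpy-7*, *rol-6*, *bli-1* and *elt-3*) were called as lower, with sums of 52.1 to 109 CPM, against 496 to 1243 CPM untreated. All 4 pharyngeal markers had lower means, with sums of 230 to 317 CPM, against 468 to 518 CPM untreated, and *tnt-4* was called. All 3 body muscle markers had lower means too, with sums of 12034 to 12071 CPM, against 17171 to 17557 CPM untreated, and none was called. The 5 neuronal markers did not fall in sum, with 179 to 207 CPM, against 178 to 196 CPM untreated. The 3 germline markers summed to 743 to 901 CPM, against 1000 to 1035 CPM untreated, and none of either list was called. Of all genes 3.14% were called as lower in this comparison. The part of these shifts in the falls of *ilys-5*, *spp-4* and *spp-23*, or in the rises of *lys-7* and *ilys-2*, was not tested.

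**Figure D2:**
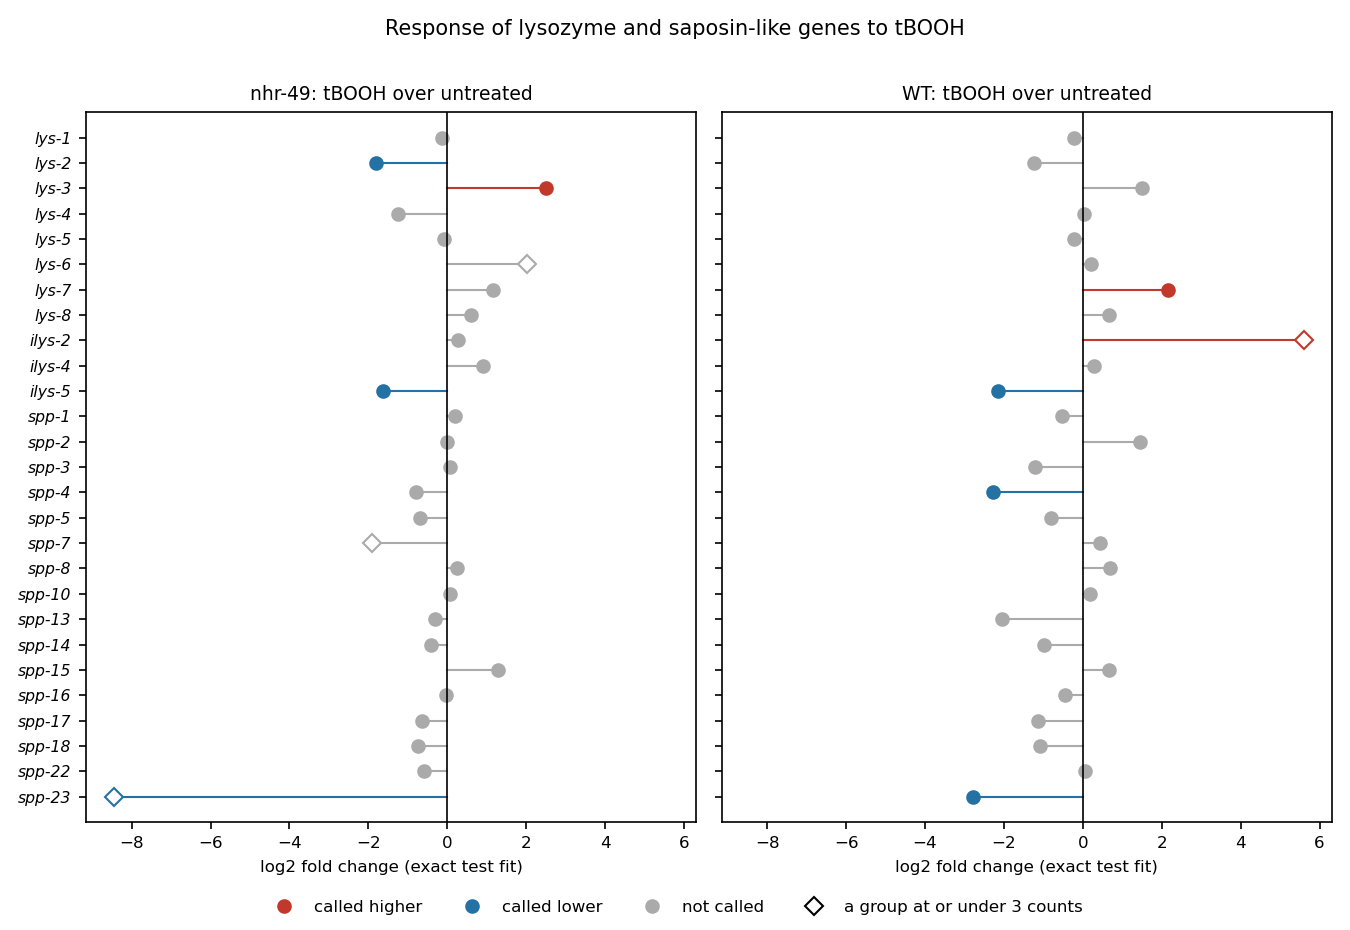
Log2 fold change of each of the 27 genes with tBOOH over untreated worms, in *nhr-49* (left) and wild-type (right), from the edgeR exact test, with red for called as higher, blue for called as lower, grey for not called, and open diamonds where a group is at or under 3 counts and the plotted value is no bound. *ilys-5* and *spp-23* are called as lower in both panels.

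The same comparison in *nhr-49* worms called 4 of the 27 genes. tBOOH raised *lys-3* 5.66-fold, and lowered *lys-2* 3.47-fold, *ilys-5* 3.07-fold and *spp-23* at least 19.2-fold. The 1 gene called as higher is 3.70% of the 27, against 2.72% of all genes tested, and the 3 called as lower are 11.1%, against 1.91% of all genes. The median log2 fold change was -0.09, against 0.04 for all genes.

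*lys-3* (WBGene00003092) had 127 and 181 counts in *nhr-49* tBOOH, against 5 and 24 in untreated *nhr-49* worms, or 29.7 and 37.7 CPM against 2.59 and 8.93 CPM (log2 2.50, edgeR adjusted p = 0.00877). Every treated value exceeded both untreated ones. Its neighbour *lys-2* (WBGene00003091) changed in the opposite direction, with 208 and 131 counts under tBOOH, against 260 and 345 untreated, or 48.6 and 27.3 CPM against 135 and 128 CPM (log2 -1.79, edgeR adjusted p = 0.00106). *lys-1*, the third gene of this cluster, had 641 and 709 CPM under tBOOH, against 732 and 748 CPM untreated (log2 -0.13), and was not called. Of these 3 neighbouring genes, 1 was thus called as higher, 1 as lower and 1 in neither direction. *lys-7* had 58.6 and 52.2 CPM under tBOOH, against 32.6 and 17.5 CPM untreated, without overlap but short of the threshold (log2 1.16, edgeR adjusted p = 0.104). *lys-8* had 333 and 383 CPM under tBOOH, against 289 and 184 CPM untreated (edgeR adjusted p = 0.538). *lys-4* had 156 and 105 CPM under tBOOH, against 220 and 401 CPM untreated (log2 -1.25, edgeR adjusted p = 0.0857).

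*ilys-5* had 653 and 621 counts in *nhr-49* tBOOH, against 931 and 1032 in untreated *nhr-49* worms, or 152 and 129 CPM against 482 and 384 CPM (log2 -1.62, edgeR adjusted p = 0.000716). *ilys-2* had 16 and 17 counts under tBOOH, against 10 and 3 untreated, and was not called. On the CPM scale its untreated values, 5.18 and 1.12 CPM, lay on either side of the treated ones, 3.74 and 3.54 CPM. *ilys-4* differed mostly between replicates, with 7.01 and 29.3 CPM under tBOOH and 5.18 and 14.1 CPM untreated, the higher value of each pair being replicate 3.

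*spp-23* was at 0 counts in both *nhr-49* tBOOH libraries, against 24 and 35 counts untreated (edgeR adjusted p = 2.38e-08). A count of 0 allows up to 0.624 and 0.701 CPM at these depths, and the untreated levels were 12.4 and 13.0 CPM. The other *spp* genes did not pass the test. *spp-17* had 54.6 and 118 CPM under tBOOH, against 160 and 109 CPM untreated, and *spp-4* had 4.20 and 3.33 CPM, against 9.32 and 4.09 CPM, with overlap in both. *spp-3* had 107 and 133 CPM under tBOOH, between its untreated values of 157 and 74.4 CPM. *spp-10* overlapped as well, with 181 and 209 CPM under tBOOH and 183 and 189 CPM untreated. The family's median log2 fold change was -0.37, or -0.32 with *spp-23* at its bound and *spp-7*, at the floor in both groups, left out.

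The calls of *lys-2* and *spp-23* in *nhr-49* worms held under every one of the 18 alternatives. That of *lys-3* was lost without untreated *nhr-49* replicate 1 (adjusted p = 0.0547), without *nhr-49* tBOOH replicate 3 (0.132) and under the quasi-likelihood test (0.0921), and that of *ilys-5* with dispersions from the 4 libraries compared (0.0763). In *nhr-49* worms the sum of the 6 intestinal markers was 6132 to 7014 CPM under tBOOH, against 8294 to 10873 CPM untreated, with all 6 means lower and *ges-1* and *act-5* called. These 2 are 33.3% of the 6 markers called as lower, against 1.91% of all genes. *asp-1*, most of the sum, had overlapping values of 4919 and 4943 CPM under tBOOH and 6745 and 4400 CPM untreated (log2 -0.18). None of the 4 hypodermal markers was called there. The part of these lower intestinal marker levels in the falls of *ilys-5*, *lys-2* and *spp-23* was not tested.

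**Figure D3:**
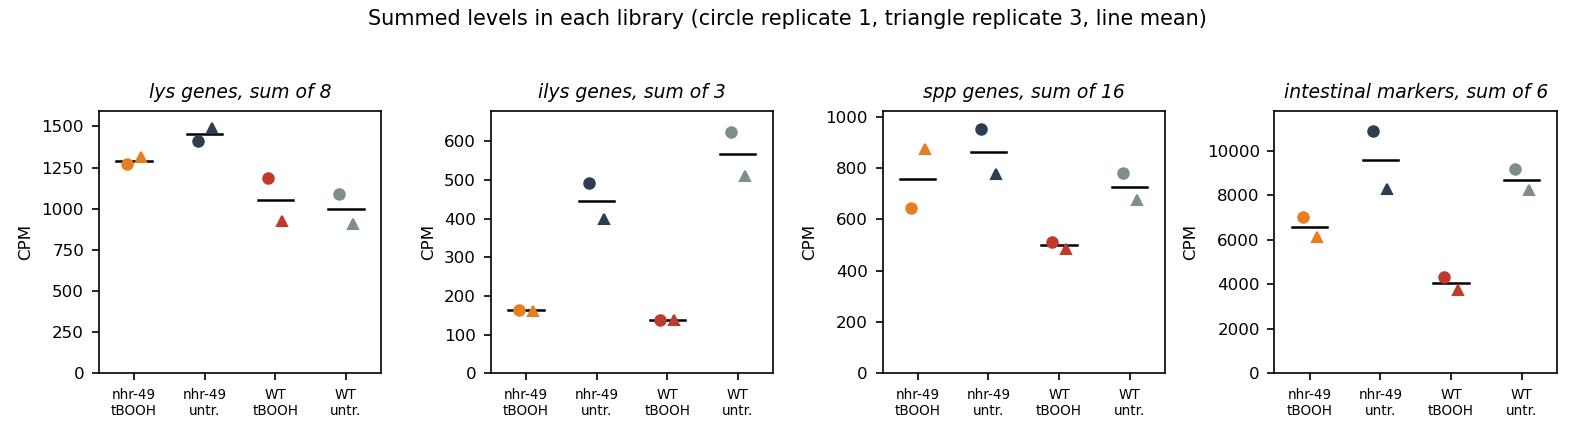
Summed CPM of the 8 *lys*, 3 *ilys* and 16 *spp* genes and of the 6 intestinal markers in each of the 8 libraries, with circles for replicate 1, triangles for replicate 3 and a line at the group mean. The *ilys* sum is 138 to 163 CPM in the 4 tBOOH libraries and 399 to 623 CPM in the 4 untreated ones, while the *lys* sums of wild-type worms overlap between treatments.

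*ilys-5* and *spp-23* were thus called as lower with tBOOH in both genotypes. These 2 genes are 40.0% of the 5 genes called in wild-type and 50.0% of the 4 called in *nhr-49* worms. The same shares over all called genes were not computed, so whether this sharing is particular to the family cannot be told. The *ilys* sum, which *ilys-5* dominates, was 162 to 163 CPM in *nhr-49* tBOOH and 138 to 139 CPM in wild-type tBOOH, against 399 to 493 CPM in untreated *nhr-49* and 511 to 623 CPM in untreated wild-type worms. The *spp* sum of *nhr-49* worms was 642 to 873 CPM under tBOOH and 775 to 951 CPM untreated, with overlap, and their *lys* sum was 1270 to 1315 CPM under tBOOH, against 1412 to 1491 CPM untreated.

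Whether the responses differed between the genotypes was tested as an interaction with the quasi-likelihood test of edgeR. None of the 27 genes and 0% of all 14334 genes passed at an adjusted p under 0.05, where the lowest adjusted p of any gene was 0.185. At an unadjusted p under 0.05 there were 4 of the 27 genes, beside 523 of all genes (3.65%). DESeq2 called none of the 27 genes and 16 of all genes. The 4 genes were *spp-23* (unadjusted p = 0.00319), *ilys-2* (0.00427), *lys-4* (0.0322) and *spp-3* (0.0400), by this quasi-likelihood test. *spp-3* had a log2 fold change of 0.06 in *nhr-49* and -1.22 in wild-type worms, and *lys-4* had -1.25 in *nhr-49* and 0.04 in wild-type worms. For *spp-23* and *ilys-2* the fitted differences rest on groups at the floor and are not given. Without the filter on low values, which changes the estimate of spread and the number of genes tested, both were called, as the only 2 of the 27 genes, beside 113 of all 19796 genes (0.571%). *lys-7*, called in wild-type only, had an unadjusted interaction p of 0.0680, and *lys-3*, called in *nhr-49* only, had 0.388, so that neither response was shown to differ between genotypes.

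The genotypes were then compared directly, which asks whether the genes depend on *nhr-49* at rest. In untreated worms 2 of 27 genes were called, both as higher in *nhr-49* (7.41%, against 0.802% of all genes tested), and none as lower (0.195% of all genes). *lys-3* had 5 and 24 counts in untreated *nhr-49*, against 2 and 4 in untreated wild-type worms (log2 3.18, edgeR adjusted p = 0.0297). *ilys-2* had 10 and 3 counts in untreated *nhr-49*, against 0 and 1 in untreated wild-type worms (edgeR adjusted p = 0.0430). Its *nhr-49* mean was at least 4.98-fold higher, but replicate 3, with 3 counts, was itself at the floor. These are small counts in the shallowest libraries. The quasi-likelihood test called neither gene and DESeq2 called *lys-3* alone, while by the exact test 8 of 27 (29.6%) reached an unadjusted p under 0.05, against 7.56% of all genes tested.

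Both calls also depended on single libraries. *lys-3* was lost without either untreated wild-type library and without untreated *nhr-49* replicate 3, where its adjusted p was 1. It was also lost without both *nhr-49* replicate 3 libraries (adjusted p = 0.647), where *ilys-2* and *lys-2* were the genes called. *ilys-2* was lost without either untreated wild-type library, without either wild-type tBOOH library and without untreated *nhr-49* replicate 1, and in all under 11 of 18 alternatives. With the replicate number as a block, neither *lys-3* (adjusted p = 0.120) nor *ilys-2* (0.279) was called.

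Most of the other genes had higher means in untreated *nhr-49* worms without passing the test, with 19 of 27 log2 fold changes above 0 and a median of 0.54, against -0.03 for all genes tested. The fitted values of the 3 genes at the floor in a group (*ilys-2*, *lys-6* and *spp-7*) entered this median, and they are no bounds. With bounds in place of these fitted values the median was 0.30. *lys-2* had 135 and 128 CPM in untreated *nhr-49*, against 65.3 and 50.0 CPM in untreated wild-type worms (log2 1.19, edgeR adjusted p = 0.179). *spp-10* had 183 and 189 CPM in untreated *nhr-49*, against 103 and 88.1 CPM in untreated wild-type worms (log2 0.96, edgeR adjusted p = 0.219), and *spp-8*, its neighbour, had 87.0 and 93.0 CPM against 49.5 and 39.5 CPM (log2 1.02, edgeR adjusted p = 0.219). In these 3 genes the replicates of each genotype were close and the genotypes did not overlap. Non-overlap held for 15 of the 27 genes in this comparison, among them *ilys-5* and *spp-15* with lower values in *nhr-49*. The share over all genes was not computed, and with 2 libraries per group such separation alone does not show a difference. *lys-1* also did not overlap, at 732 and 748 CPM in untreated *nhr-49* and 559 and 416 CPM in untreated wild-type worms (edgeR adjusted p = 0.841). *lys-6*, at the floor, had 0 counts in both untreated *nhr-49* libraries and 7 and 3 counts in untreated wild-type worms.

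**Figure D4:**
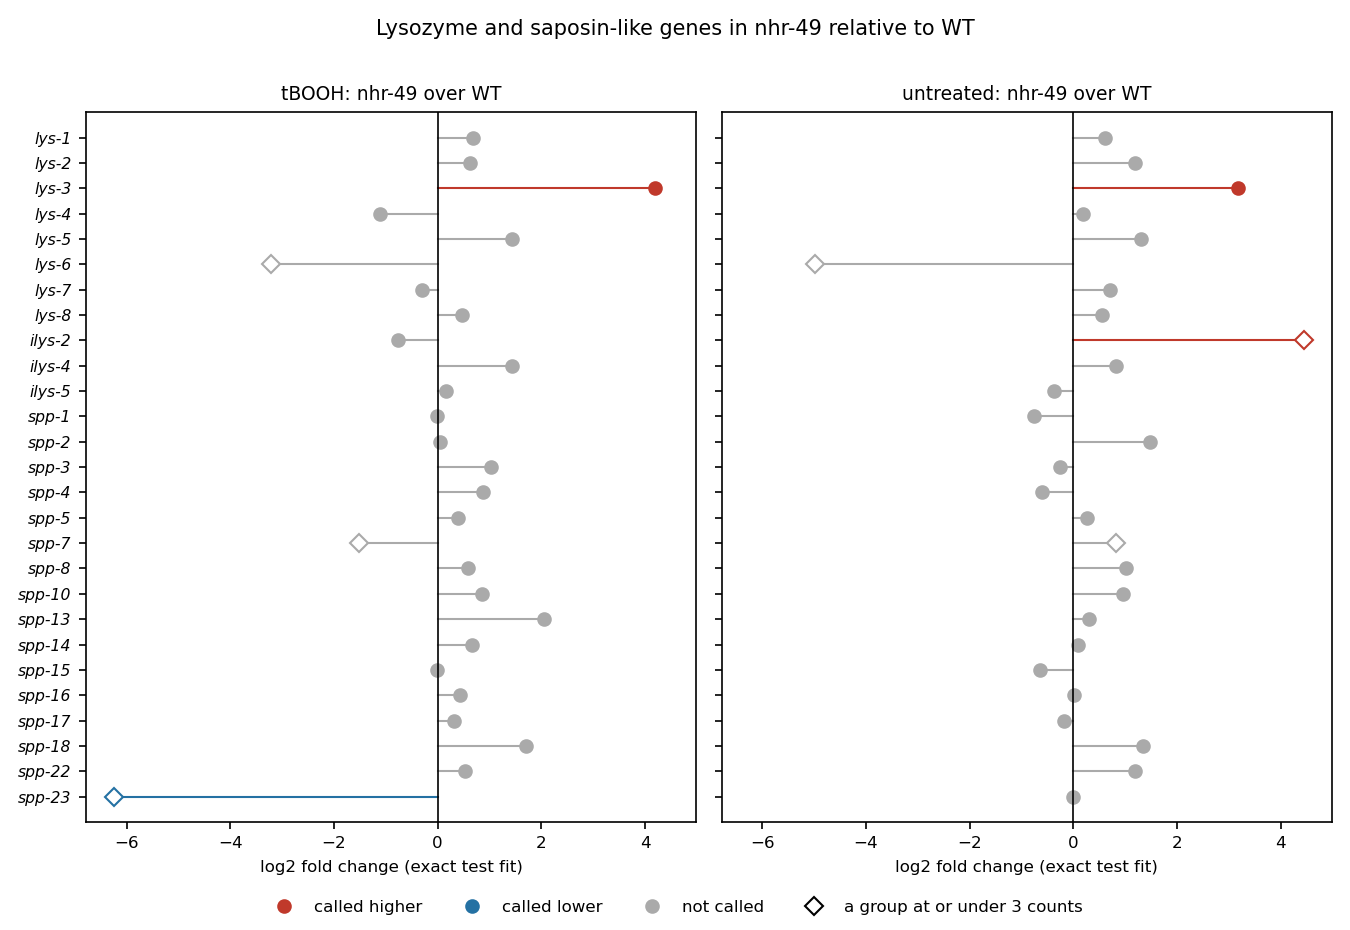
Log2 fold change of each of the 27 genes in *nhr-49* over wild-type worms under tBOOH (left) and untreated (right), from the edgeR exact test, coloured as called higher (red), called lower (blue) or not called (grey), with open diamonds where a group is at or under 3 counts and the plotted value is no bound. *lys-3* is called as higher in both panels, and *spp-23* as lower under tBOOH.

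Under tBOOH *lys-3* in *nhr-49* worms exceeded its wild-type level 18.3-fold and the mean of *spp-23* was at least 2.76-fold lower. These are 1 of 27 genes called as higher (3.70%, against 1.79% of all genes tested) and 1 called as lower (3.70%, against 0.509%). *lys-3* had 127 and 181 counts in *nhr-49* tBOOH, against 6 and 14 in wild-type tBOOH, or 29.7 and 37.7 CPM against 1.02 and 2.65 CPM (log2 4.19, edgeR adjusted p = 4.86e-06, DESeq2 4.30 ± 0.71 SE). Both *nhr-49* values were far above both wild-type values, and the call held under every one of the 18 alternatives. *spp-23* had 0 counts in both *nhr-49* tBOOH libraries, against 16 and 5 in wild-type tBOOH (edgeR adjusted p = 0.00896). Its call was lost under 8 of the 18 alternatives, among them the quasi-likelihood test (adjusted p = 0.143), leaving out wild-type tBOOH replicate 1 (0.739), *nhr-49* tBOOH replicate 1 (0.0827) or *nhr-49* tBOOH replicate 3 (0.279), leaving out both *nhr-49* replicate 3 libraries (0.119), and the replicate number as a block (0.102).

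*lys-7* and *ilys-5*, both called with tBOOH in wild-type worms, were not called between the treated genotypes. *lys-7* had 58.6 and 52.2 CPM in *nhr-49* tBOOH, against 61.8 and 75.6 CPM in wild-type tBOOH (log2 -0.31, edgeR adjusted p = 0.933). *ilys-5* had 152 and 129 CPM in *nhr-49* tBOOH, against 124 and 127 CPM in wild-type tBOOH (log2 0.16, edgeR adjusted p = 0.973). A missed threshold does not show that these levels are equal, and DESeq2 gave differences of -0.23 ± 0.39 for *lys-7* and 0.24 ± 0.30 for *ilys-5* (log2, SE). The median over the 27 genes was 0.48, against -0.05 for all genes. *spp-10* had 181 and 209 CPM in *nhr-49* tBOOH, against 98.6 and 116 CPM in wild-type tBOOH (log2 0.86, edgeR adjusted p = 0.227), again without overlap and short of the threshold. *spp-18* came nearest to it, with 8.17 and 12.9 CPM in *nhr-49* tBOOH, against 3.05 and 3.41 CPM in wild-type tBOOH (log2 1.70, edgeR adjusted p = 0.0659). Without *nhr-49* tBOOH replicate 1, 6 genes were called as higher in *nhr-49* (*ilys-4*, *lys-3*, *spp-10*, *spp-13*, *spp-14* and *spp-18*), where 4.86% of all genes were. The hypodermal markers *dpy-7* and *rol-6* were called as higher in *nhr-49* tBOOH as well, which are 50% of the 4 markers, against 1.79% of all genes. Their part in these differences was not tested.

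Of 24 regulators known to act on such genes or on related defences, 5 were called in at least 1 comparison, all as higher. The share of all genes called in at least 1 comparison was not computed, and shares per comparison are given instead. The lists were chosen with earlier results of these data known, so these shares cannot show that they responded more than other genes. Of 8 genes of the p38 MAPK pathway, which drives many antibacterial genes in the intestine, 1 was called, *vhp-1*, a phosphatase that restrains the pathway. It had 489 and 433 CPM in *nhr-49* tBOOH, against 211 and 188 CPM in untreated *nhr-49* worms (log2 1.21, edgeR adjusted p = 0.0148). This is 12.5% of the 8 genes called as higher there, against 2.72% of all genes. Of 7 genes of the TGF-beta pathway *sma-4*, its co-Smad, was called with tBOOH in wild-type worms, with 48.6 and 38.1 CPM under tBOOH, against 8.29 and 17.8 CPM untreated (edgeR adjusted p = 0.0438). This is 14.3% of the 7 genes called as higher, against 2.2% of all genes. Of 9 regulators of intestinal immunity and lysosomes, *elt-7*, an intestinal GATA factor, was called as higher with tBOOH in wild-type worms (log2 1.39, edgeR adjusted p = 0.0464). This is 11.1% of the 9 genes, against 2.2% of all genes. In *nhr-49* worms the bZIP factor genes *zip-2* (log2 1.08, edgeR adjusted p = 0.0491) and *cebp-1* (log2 2.27, edgeR adjusted p = 0.000132) were called as higher, which are 22.2% of the 9 genes against 2.72% of all genes. As higher in *nhr-49* between the treated genotypes, 1 of the 9 genes (11.1%, against 1.79% of all genes) was called, *cebp-1* (log2 1.89, edgeR adjusted p = 0.00383). It had 268 and 360 CPM in *nhr-49* tBOOH, against 82.9 and 86.8 CPM in wild-type tBOOH. None of these 3 lists had a gene called as lower in any comparison, where 0.195% to 3.14% of all genes were called as lower. *daf-16*, *hlh-30* and *pmk-1* were called in none.

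Lysosomal hydrolases and membrane proteins gave a background for the saposin-like genes, since saposins help such enzymes. Of 20 genes *scav-3*, a homologue of a lysosomal membrane receptor, was called with tBOOH in wild-type worms, with 113 and 84.9 CPM under tBOOH, against 47.2 and 41.4 CPM untreated (edgeR adjusted p = 0.0384). This is 5% of the 20 genes called as higher, against 2.2% of all genes. *gba-4*, a glucocerebrosidase gene, was called as lower with tBOOH in *nhr-49* worms, with 8.41 and 5.41 CPM under tBOOH, against 20.7 and 16.7 CPM untreated (edgeR adjusted p = 0.0348). It was also called between the treated genotypes, as lower in *nhr-49* (log2 -1.49, edgeR adjusted p = 0.0276). Each time this is 5% of the 20 genes called as lower, against 1.91% of all genes with tBOOH and 0.509% between the treated genotypes. The other 18 genes were called in no comparison. With tBOOH the 20 log2 fold changes had a median of -0.19 in *nhr-49* and -0.18 in wild-type worms.

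The 12 symbols below the filter had at most 4 counts in any library, and 4 of them (*ilys-1*, *ilys-6*, *lys-9* and *spp-21*) had 0 counts in all 8. *lys-10* had 3 counts in each wild-type tBOOH library and 0 in the other 6, which is at the floor. *spp-6*, *spp-9*, *spp-11*, *spp-12*, *spp-19* and *spp-20* had 0 to 3 counts. Differences in these genes were not detectable at this depth.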

How the data were processed

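Whole-worm RNA was depleted of ribosomal RNA and sequenced as paired reads of 76 bases. Per the labels, STAR, edgeR and the build ce10 were used, and the authors deposited integer counts per gene symbol. They also deposited a normalised signal, which is the count over the effective library size (the total scaled by TMM), in CPM. It lists only genes that exceed 1 CPM in 2 or more libraries. The counting program was not given in the sources used here. Gene identifiers, chromosomes, overlaps and exonic lengths come from the WBcel235 annotation, a different build, and coordinates are left out. All 39 symbols had an identifier. Promoter motifs and protein sequences were not analysed here.

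The versions used were edgeR 4.0.16 and DESeq2 1.42.0, with limma 3.58.1 loaded, under R 4.3.3. The filter and TMM factors followed the study's methods, and the recomputed CPM matched the deposited values within 4.50e-06. The exact test of edgeR used 1 dispersion per gene from all 8 libraries (common coefficient of variation 36.2%), and p-values were adjusted over all 14334 genes (Benjamini-Hochberg). The interaction used the quasi-likelihood test with 4 residual degrees of freedom per gene. The study's text calls the libraries biological replicates, and with 2 per group p-values rest on a spread shared across genes. The tests were run on simulated data first. Folds against a group with every library at or under 3 counts are bounds computed from the mean of the other group against 3 counts per library. A single library of that other group can lie below such a bound. Totals and floors per library limit what low genes can show, for counting error only.

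Values per library are given for genes called in any comparison, for the 2 most abundant genes of each family and for genes with an unadjusted interaction p under 0.05, which are 14 genes. The other 13 are given by range or in part. *spp-5*, *spp-8* and *spp-18* were added after their values were seen. The genes and the lists of regulators, lysosomal genes and markers were chosen with earlier results of these data known. The shares of these lists called, set beside those of all genes, are description only. Alternatives were the quasi-likelihood and likelihood ratio tests, DESeq2, RLE normalization, other filters, a replicate block, leaving out each library, thinning every library to the smallest total, and dispersions estimated from only the 4 libraries in a comparison.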

Additional observations from a re-analysis of the deposited data

Results flagged for a closer look

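Genes below the filter were flagged when their highest tBOOH count exceeded both 3 counts and their highest untreated count. Higher counts in treated worms were thus a condition of selection. *ilys-3*, an invertebrate-type lysozyme gene of the pharynx and intestine, lies near *ilys-2* on chromosome IV. This gene fell below the filter and entered no comparison, but had reads in treated worms alone. It had 4 and 2 counts in wild-type tBOOH, against 0 and 0 in untreated wild-type worms, and 1 and 0 counts in *nhr-49* tBOOH, against 0 and 0 in untreated *nhr-49* worms. The highest value, 4 counts, is above the 3 counts that a count of 0 allows. No test was made of these counts, and reads shared with *ilys-2* cannot be told apart here.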

How the results depend on the processing

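Alternatives were computed for the calls of single genes, not for genes that missed the threshold, and no called fold change changed sign under them. These calls held in 193 cases and were lost in 41, and recomputed counts of called genes stayed within 1.5 times in 62 cases and moved further in 26. With tBOOH in wild-type worms 5 genes were called, but 3 with the quasi-likelihood test, 12 with dispersions from only the 4 libraries compared (where 16.2% of all genes were called), and 11 without both *nhr-49* replicate 3 libraries (where 17.2% were), an alternative chosen after seeing the data. Leaving out 1 library gave 2 to 9. In *nhr-49* worms 4 were called, and 3 to 5 with 1 library left out. Between untreated genotypes 2 were called, but 0 with the quasi-likelihood test, with dispersions from 4 libraries and with the replicate block, 1 with DESeq2, without the filter and after thinning, and 0 to 3 with 1 library left out. Under tBOOH 2 were called between genotypes, but 1 with the quasi-likelihood test, dispersions from 4 libraries, the replicate block or without both *nhr-49* replicate 3 libraries, and 1 to 6 with 1 library left out. The interaction called 0, but 2 without the filter (0.571% of all genes), and 0 with any library left out. Fewer samples enter where libraries are left out. Otherwise the cause was not tested.

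Replicate numbers did not establish pairs. Deviations of same-numbered libraries correlated at -0.04 to 0.32 across genes over 6 pairs of groups, and each group has only 2 numbers. The block gave 6 genes in wild-type and 4 in *nhr-49* worms with tBOOH, and 0 in the interaction. Depth limits the genes at under 10 CPM most, since the untreated *nhr-49* libraries held 2157766 and 2634620 counts.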
